A study of Homo sapiens with 4 samples.

Results

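The subunit genes of nuclear RNA polymerases I, II and III were followed in KYSE170 cells exposed to EDHB. A gene was taken when its current symbol was POLR1, POLR2 or POLR3 followed by letters only and it codes for a protein. That rule gave 31 genes, and 29 of them had at least 1 probe set annotated to exactly 1 gene, out of 19751 genes measured in all. The probe sets of POLR2M are also annotated to its neighbours, so it has no value as a member. The 29 genes comprised 6 subunits found only in Pol I, 7 only in Pol II and 9 only in Pol III, 2 shared by Pol I and Pol III, and 5 shared by all 3 polymerases.

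KYSE170 is 1 human line grown out of a squamous carcinoma of the oesophagus. Total RNA came from cells given ethyl-3,4-dihydroxybenzoate (EDHB) at 50 µg/ml for 12 h (2 arrays) and from untreated cells (2 arrays), both in the same serum-containing medium. EDHB inhibits prolyl hydroxylases, the enzymes that mark hypoxia-inducible factors for degradation. The labels do not say whether replicates were separate cultures, so every p-value measures the spread between these arrays, which may be technical.

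Each nuclear polymerase makes a different kind of RNA. Pol I transcribes the large ribosomal RNA precursor in the nucleolus, Pol II transcribes messenger RNA, and Pol III transcribes transfer RNA, the smallest ribosomal RNA and other short RNAs. All are built on a common plan, with a large and a second-largest catalytic subunit, an assembly platform, a stalk that faces the emerging RNA, and small subunits that several of the enzymes share. Output of Pol I and Pol III is known to follow growth and nutrient signals.

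Values are log2 intensities of the brightest probe set of a gene, and changes are EDHB minus untreated on that scale. The replicate 2 columns of the deposited table stood in another row order, which was restored from the untreated arrays. All 67 probe sets of the 29 genes were restored, and all 29 genes lay above the median probe set of the array (4.54). Median intensity lay between 23.2 and 23.4 on the 4 arrays. Of 10 genes on a hypoxia list 8 were measured. All 8 were higher on both EDHB arrays than on both untreated ones, against 23.2% of all genes. NDRG1 was higher by 2.30 and VEGFA, the angiogenic growth factor, by 1.32. That list was chosen with earlier results of these data known, so it is no independent check of the treatment. Of 13 listed squamous epithelial markers 10 were measured, without KRT6A, KRT17 and TP63. Of these 10, 9 lay above the median probe set and KRT14 lay below it. Their summed intensities were 6855 to 7366 on the EDHB arrays and 6572 to 6783 on the untreated arrays. DSP and CDH1 were the brightest, at mean log2 levels of 11.16 and 11.09 on the EDHB arrays, against 6.52 for KRT5, so they weigh most in the sums. Of 9 measured markers of leukocytes, fibroblasts and endothelium, 6 lay below the median probe set, with sums of 211.1 to 221.6 on the EDHB arrays and 213.6 to 227.7 on the untreated arrays. In bulk RNA, less transcript per cell cannot be told apart from fewer cells that make it.

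The promoter windows of POLR1G, POLR1B, POLR1F and POLR1C are shown because these 4 genes passed the more sensitive of the tests below. The windows run from 250 bases before to 50 bases after the annotated start, 5′ to 3′ on the gene's strand, and come from RefSeq on GRCh38.p14, in which 22 of the 29 genes had at least 1 window and POLR1B had 2. Capitals mark matches, on either strand, to CACGTG (the E-box known to bind MYC and its partners), ACGTG or GCGTG (the core of hypoxia response elements) and CCGGAAG (an ETS factor motif), and the palindromic motif of NRF1 was searched too. Every CACGTG also holds ACGTG on both strands.
POLR1G, chr19:45406394-45406693, plus strand: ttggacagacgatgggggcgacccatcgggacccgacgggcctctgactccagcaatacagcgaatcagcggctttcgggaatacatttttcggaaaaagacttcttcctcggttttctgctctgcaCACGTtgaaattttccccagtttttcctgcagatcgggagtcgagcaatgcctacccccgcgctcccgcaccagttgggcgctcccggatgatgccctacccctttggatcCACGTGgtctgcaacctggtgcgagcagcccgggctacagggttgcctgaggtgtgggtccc
POLR1B upstream start, chr2:112541786-112542085, plus strand: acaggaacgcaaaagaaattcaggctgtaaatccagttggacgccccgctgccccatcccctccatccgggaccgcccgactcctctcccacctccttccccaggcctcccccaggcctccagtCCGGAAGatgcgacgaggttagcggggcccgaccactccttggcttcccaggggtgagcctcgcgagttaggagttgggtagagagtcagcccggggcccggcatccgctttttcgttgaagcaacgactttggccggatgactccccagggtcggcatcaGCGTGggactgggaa
POLR1B downstream start, chr2:112542215-112542514, plus strand: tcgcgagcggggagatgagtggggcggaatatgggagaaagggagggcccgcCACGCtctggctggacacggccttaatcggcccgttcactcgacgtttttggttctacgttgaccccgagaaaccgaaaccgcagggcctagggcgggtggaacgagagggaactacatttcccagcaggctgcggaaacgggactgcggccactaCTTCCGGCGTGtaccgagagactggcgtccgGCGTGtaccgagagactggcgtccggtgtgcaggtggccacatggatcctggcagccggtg
POLR1F, chr7:19708988-19709287, minus strand: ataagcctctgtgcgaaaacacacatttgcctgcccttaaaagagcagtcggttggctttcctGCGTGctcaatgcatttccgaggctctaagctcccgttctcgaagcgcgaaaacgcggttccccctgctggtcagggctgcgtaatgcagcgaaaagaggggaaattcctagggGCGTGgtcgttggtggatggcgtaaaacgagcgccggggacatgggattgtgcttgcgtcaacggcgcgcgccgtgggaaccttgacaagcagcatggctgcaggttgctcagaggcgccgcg
POLR1C, chr6:43516839-43517138, plus strand: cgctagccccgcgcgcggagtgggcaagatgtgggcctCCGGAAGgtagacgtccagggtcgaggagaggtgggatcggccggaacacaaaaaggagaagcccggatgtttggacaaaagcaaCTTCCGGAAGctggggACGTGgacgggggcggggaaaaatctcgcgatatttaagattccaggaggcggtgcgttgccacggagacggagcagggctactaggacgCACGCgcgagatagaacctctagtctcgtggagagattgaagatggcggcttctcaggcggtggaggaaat
The E-box of POLR1G began 12 bases before its start, and those letters stood in no other window shown. Over the 28 windows of the 22 genes, CACGTG was found in 4, against 7.26% of the 35116 promoter windows of the whole table. POLR3A, POLR3C and POLR3E held the others. ACGTG stood in 9 of the 28 windows (21.4% of all windows), GCGTG in 20 (36.5%), CCGGAAG in 9 (10.3%) and the NRF1 motif in 4 (1.24%). Overlapping windows of POLR2F hold the same matches and were both counted. Windows of POLR3C overlap too, share a GCGTG match and were both counted. By gene, ACGTG stood in 8 of the 22, GCGTG in 16, CCGGAAG in 7 and the NRF1 motif in 3. These are matches of letters and not sites shown to be bound.

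Each of the 6 subunits found only in Pol I had a lower level after EDHB. These genes had log2 changes of -0.80 to -0.28, with a median of -0.52 (a signal change of -30.1%), and all 6 had both EDHB arrays below both untreated arrays. Over all genes 22.5% showed that pattern, and the median change of all genes was -0.0014. The Pol I median was -0.41 within replicate 1 and -0.68 within replicate 2. In limma with Benjamini-Hochberg adjustment over all genes, 0 of the 29 polymerase genes passed at an adjusted p under 0.05, where 0.0101% of all genes did (2 genes). At an unadjusted p under 0.05, 10 members were lower and 0 higher in limma, against 7.98% and 8.81% of all genes (16.8% in either direction). These 10 were the 6 Pol I subunits, POLR1C, POLR3B, POLR3E and POLR3G. When limma's prior variance followed the intensity trend, 4 members passed, all lower, namely POLR1B, POLR1F, POLR1G and POLR1C, while 0.830% of all genes passed lower and 1.07% higher (1.90% in all). None of the 4 passed in that trend fit with the replicate number as a block. Without the trend, that block left 0 genes called over the whole table, where the fit without a block called 2. The whole-table count of the trend fit with the block is not given here. Without any 1 array, changes ran from -0.83 to -0.78 for POLR1G and from -0.67 to -0.61 for POLR1B. They ran from -0.52 to -0.46 for POLR1F and from -0.51 to -0.42 for POLR1C.

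**Figure D1:**
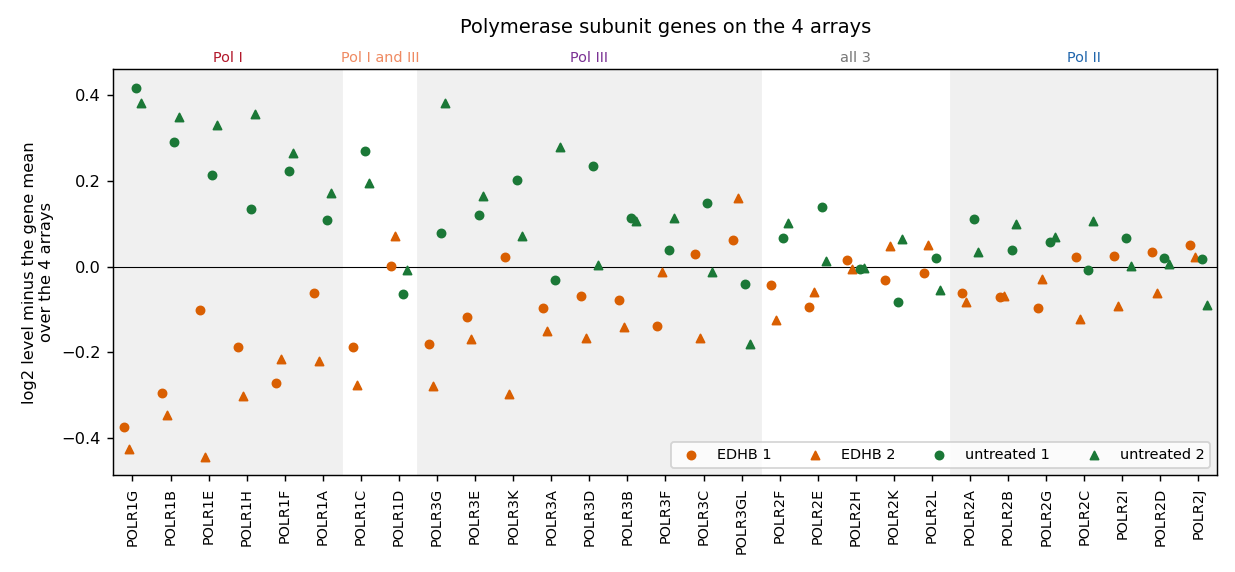
Log2 level of each of the 29 genes on the 4 arrays, minus the gene's own mean, with EDHB arrays in orange and untreated arrays in green (circles replicate 1, triangles replicate 2). In the 6 Pol I genes both EDHB arrays lie below both untreated arrays, while in several Pol II genes and genes shared by all 3 enzymes the groups overlap.

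POLR1G, a Pol I subunit that forms a dimer with POLR1E and helps the enzyme start, had the lowest change of all members. Its log2 levels were 7.80 and 7.75 on the EDHB arrays, against 8.59 and 8.56 on the untreated arrays. The groups were well apart and each pair of arrays lay close together. The change was -0.80 ± 0.08 (SE, n = 2 and 2), a signal change of -42.6%, with an adjusted p of 0.0763 in limma and 0.0131 with the intensity trend. Of the 19751 genes, 0.0962% had a lower change, in a ranking that holds only restored rows. Of the 45 rows sorted as 2-fold lower in replicate 2, 21 were restored. Its single probe set gave -0.79 within replicate 1 and -0.81 within replicate 2.

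POLR1B, the second-largest catalytic subunit, stood at 8.98 and 8.93 on the EDHB arrays and at 9.57 and 9.62 on the untreated arrays. The groups did not overlap. Its change was -0.64 ± 0.08 (SE, n = 2 and 2; adjusted p = 0.0925 in limma, 0.0165 with the trend). All 4 of its probe sets were lower after EDHB, with changes of -0.64, -0.56, -0.53 and -0.40. POLR1A, the largest subunit, which carries the active site, differed less. It had 7.42 and 7.26 on the EDHB arrays, against 7.58 and 7.65 on the untreated arrays, a change of -0.28 ± 0.09 (SE, n = 2 and 2; adjusted p = 0.240 in limma). Its 2 other probe sets gave -0.35 and -0.26.

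The stalk subunit POLR1F had 8.20 and 8.25 on the EDHB arrays, against 8.69 and 8.73 on the untreated arrays. Its change of -0.49 ± 0.08 (SE, n = 2 and 2) was nearly equal within replicates 1 and 2, at -0.50 and -0.48 (adjusted p = 0.116 in limma, 0.0355 with the trend). POLR1E, the partner of POLR1G, had 8.338 and 7.995 on the EDHB arrays, against 8.65 and 8.77 on the untreated arrays. Here the EDHB arrays lay apart from each other, with the second lower, and the change was -0.32 within replicate 1 and -0.78 within replicate 2. The dimmer probe sets of POLR1E gave smaller changes, of -0.26 and -0.25. POLR1H, a small subunit that helps cleave stalled transcripts, was similar in this respect, with 9.25 and 9.14 on the EDHB arrays, against 9.58 and 9.80 on the untreated arrays, and changes of -0.32 and -0.66. The 4 dim probe sets of POLR1H, below the median probe set, gave -0.36 to 0.02 and are not shown to be above background.

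**Figure D2:**
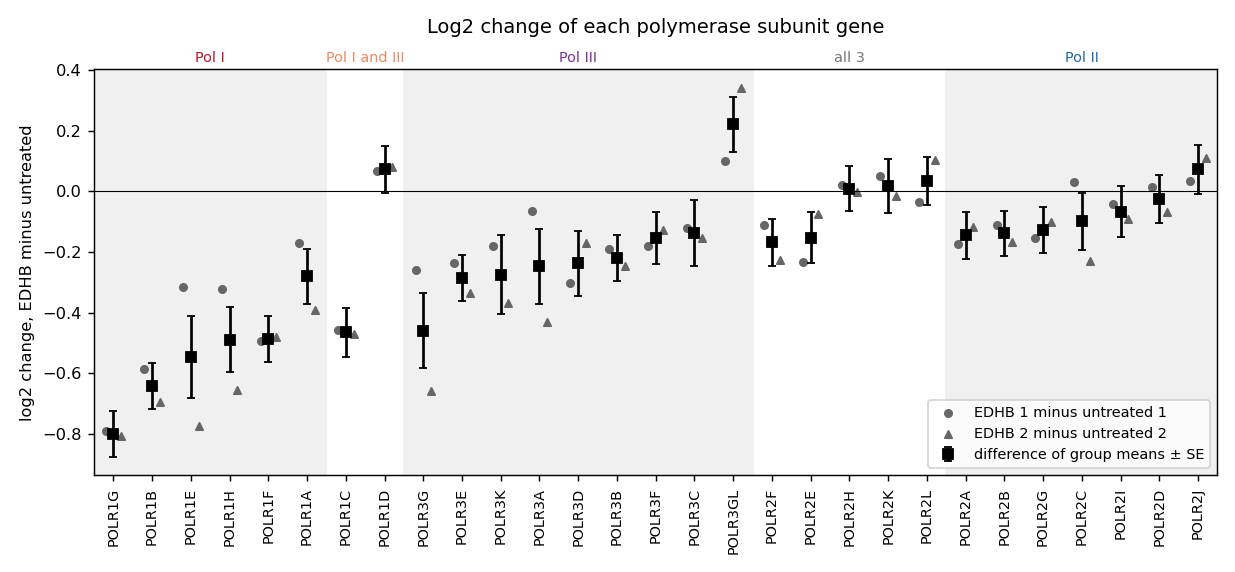
Log2 change of each gene, EDHB minus untreated, as the difference of group means with limma's SE (squares) and within each replicate number (circles and triangles). The Pol I changes run from -0.80 to -0.28 and the Pol II changes from -0.14 to 0.07.

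The 2 subunits that Pol I shares with Pol III differed from each other. POLR1C and POLR1D form the heterodimer on which both enzymes assemble. POLR1C had 8.45 and 8.36 on the EDHB arrays, against 8.91 and 8.83 on the untreated arrays, a change of -0.47 ± 0.08 (SE, n = 2 and 2; adjusted p = 0.129 in limma, 0.0408 with the trend), and its second probe set gave -0.50. POLR1D had 10.38 and 10.45 on the EDHB arrays, against 10.32 and 10.37 on the untreated arrays. Its EDHB arrays lay slightly above the untreated ones, with a change of 0.07 and a 95% interval of -0.13 to 0.27. The other 2 probe sets of POLR1D were dimmer and both gave -0.19, so its direction depends on the probe set. On the brightest probe sets the change of POLR1C minus that of POLR1D was -0.52 within replicate 1 and -0.55 within replicate 2. With 2 arrays a group an exact permutation test cannot go below a two-sided p of 0.333. Differences between genes and between sets are given as values and were not tested.

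Of the 9 measured Pol III subunits, 7 had both EDHB arrays below both untreated arrays, 1 (POLR3GL) had them above and 1 (POLR3C) overlapped, against 22.5% below and 23.2% above over all genes. Their median change was -0.24 (-0.18 and -0.25 within replicates 1 and 2), and 0 of the 9 passed in either limma fit. POLR3E, a peripheral subunit that with POLR3D forms a unit related to an initiation factor of Pol II, had 8.93 and 8.87 on the EDHB arrays, against 9.16 and 9.21 on the untreated arrays. Its change was -0.29 ± 0.08 (SE, n = 2 and 2; adjusted p = 0.189 in limma). The dimmer probe sets of POLR3E gave -0.53, -0.10 and -0.08, so the size of its change depends on the probe set. The second-largest subunit POLR3B had 8.86 and 8.79 on the EDHB arrays, against 9.05 and 9.04 on the untreated arrays, a change of -0.22 (unadjusted p = 0.0339 and adjusted p = 0.258 in limma). Dim probe sets of POLR3B, below the median probe set, gave -0.02 and 0.07. On their brightest probe sets both genes had groups that did not overlap, with close replicates.

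The largest Pol III subunit, POLR3A, had 7.23 and 7.18 on the EDHB arrays, against 7.29 and 7.61 on the untreated arrays. There the untreated arrays lay apart from each other, and the change was -0.06 within replicate 1 and -0.43 within replicate 2. A second probe set of POLR3A, of similar brightness, gave -0.30. POLR3K, the small transcript-cleavage subunit, had changes of -0.18 and -0.37 within replicates 1 and 2, and POLR3D of -0.30 and -0.17. A dim probe set of POLR3K, below the median probe set, gave 0.14 and is not shown to be above background. POLR3C and POLR3F, which with POLR3G make up the initiation trimer of Pol III, had changes of -0.14 and -0.15. POLR3F was the dimmest member, at a mean log2 level of 4.78 on the EDHB arrays and 4.94 on the untreated arrays, little above the median probe set. CRCP, a Pol III stalk subunit whose symbol falls outside the rule, had a change of -0.17 (-0.15 and -0.20 within replicates 1 and 2).

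POLR3G and POLR3GL are paralogs that take the same place in alternative forms of Pol III, of which the form with POLR3G is known from stem and cancer cells. They went in opposite directions on these arrays. POLR3G had 7.11 and 7.01 on the EDHB arrays, against 7.37 and 7.67 on the untreated arrays, a change of -0.46 ± 0.12 (SE, n = 2 and 2; adjusted p = 0.191 in limma). All 3 of its probe sets were lower, with changes of -0.47 to -0.30, of which 1 lay below the median probe set. POLR3GL had 6.65 and 6.75 on the EDHB arrays, against 6.55 and 6.40 on the untreated arrays, a change of 0.22 ± 0.09 (SE, n = 2 and 2; adjusted p = 0.318 in limma). In both genes the groups did not overlap, and POLR3GL had the highest change of all members on its 1 probe set. The change of POLR3G minus that of POLR3GL was -0.36 within replicate 1 and -1.003 within replicate 2, so its size rests much on the second pair of arrays.

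**Figure D3:**
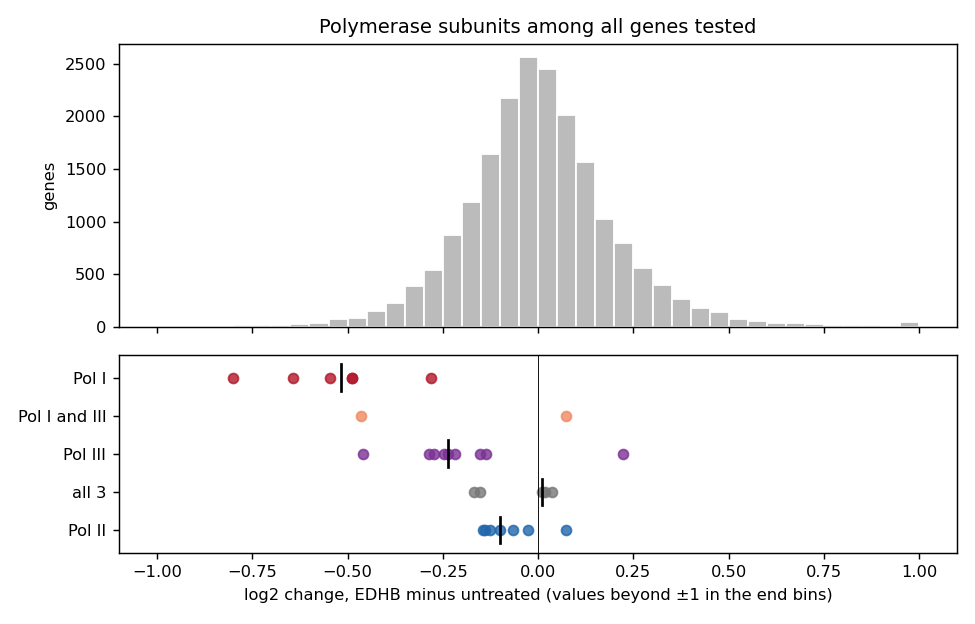
Histogram of the log2 changes of all 19751 genes (top, with changes beyond -1 or 1 drawn in the end bins) and the change of each polymerase subunit gene by enzyme (bottom; vertical bars are medians, drawn for sets of more than 2 genes). The Pol I genes lie in the lower tail of the histogram, and the genes shared by all 3 enzymes lie around 0.

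Pol II subunits differed little between the groups. The 7 genes had changes of -0.14 to 0.07 with a median of -0.10 (-0.04 and -0.10 within replicates 1 and 2). Of these, 3 had both EDHB arrays below both untreated arrays, 1 had them above and 3 overlapped, against 22.5% below and 23.2% above over all genes, and 0 had an unadjusted p under 0.05 in limma. POLR2A, the catalytic subunit with the repeat tail that is phosphorylated during transcription, had 8.73 and 8.71 on the EDHB arrays, against 8.91 and 8.83 on the untreated arrays (change -0.14, 95% interval -0.34 to 0.05). The second-largest subunit POLR2B had 9.21 and 9.22 on the EDHB arrays, against 9.33 and 9.38 on the untreated arrays (change -0.14, 95% interval -0.33 to 0.05). Both genes were slightly lower on both EDHB arrays, by amounts the fit does not separate from 0.

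Of the stalk pair, POLR2G was at 11.16 and 11.23 on the EDHB arrays, against 11.32 and 11.33 on the untreated arrays, while POLR2D was at 8.72 and 8.62 on the EDHB arrays, against 8.70 and 8.69 on the untreated arrays. POLR2G was thus slightly lower and POLR2D overlapped. The platform subunits POLR2C and POLR2J, the Pol II counterparts of the shared POLR1C and POLR1D, had changes of -0.10 and 0.07. POLR2I, the counterpart of POLR1H, had a change of -0.07. POLR2J2, a near-identical paralog of POLR2J that is no member because its symbol ends in a digit, had a change of 0.04. A further 4 probe sets are annotated to POLR2J together with POLR2J2 and POLR2J3, so these copies cannot be told apart there. The only probe set annotated to POLR2J alone may read the copies too, which was not tested. The 4 probe sets that POLR2M shares with its neighbours had changes of -0.11 to 0.04.

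The 5 subunits built into all 3 enzymes had a median change of 0.0095, with a range of -0.17 to 0.04. POLR2H had 10.81 and 10.80 on the EDHB arrays, against 10.79 and 10.80 on the untreated arrays, the smallest change of any member at 0.01 (95% interval -0.18 to 0.20). POLR2K and POLR2L, small zinc-binding subunits, also overlapped between groups, with changes of 0.02 and 0.04. POLR2F and POLR2E were lower on both EDHB arrays, by changes of -0.17 and -0.15, and neither reached an unadjusted p under 0.05 in limma (0.0833 and 0.128). A dimmer probe set of POLR2L gave -0.21, opposite to its brightest one.

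Counterparts in the 3 enzymes were set side by side as differences between changes on their brightest probe sets. For the second-largest subunits, the change of POLR1B minus that of POLR2B was -0.48 within replicate 1 and -0.53 within replicate 2, and minus that of POLR3B it was -0.40 and -0.45. For the stalk, POLR1F minus POLR2G gave -0.34 and -0.38, and POLR1F minus CRCP gave -0.35 and -0.28. These differences kept their size in both pairs of arrays. POLR1H minus POLR2I gave -0.28 and -0.57, and POLR1H minus POLR3K gave -0.14 and -0.29. The largest subunits did not separate in this way, since POLR1A minus POLR2A was 0.0032 within replicate 1 and -0.27 within replicate 2, and POLR1A minus POLR3A was -0.10 and 0.04. Over the sets, the Pol I median minus the Pol II median was -0.42 (-0.37 and -0.58 within replicates), and the Pol I median minus the Pol III median was -0.28 (-0.23 and -0.43). Both kept their sign under all scalings and without any 1 array.

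Other probe sets of the same genes were read too. Of the 67 probe sets, 54 lay at or above the median probe set, and 37 of these had both EDHB arrays below both untreated arrays and 3 had them above. Among all 27216 such probe sets of the array, 26.5% were below. All 15 Pol I probe sets at that level were below, with a median change of -0.49 and a range of -0.80 to -0.25. For Pol III 11 of 15 were below, for Pol II 5 of 11, and for the subunits shared by all 3 enzymes 2 of 8. Probe sets of 1 gene read the same RNA and are not replicates. Of the 25 further probe sets at that level, 22 had the sign of the brightest one of their gene, and the 3 others were both dimmer ones of POLR1D and the dimmer one of POLR2L.

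**Figure D4:**
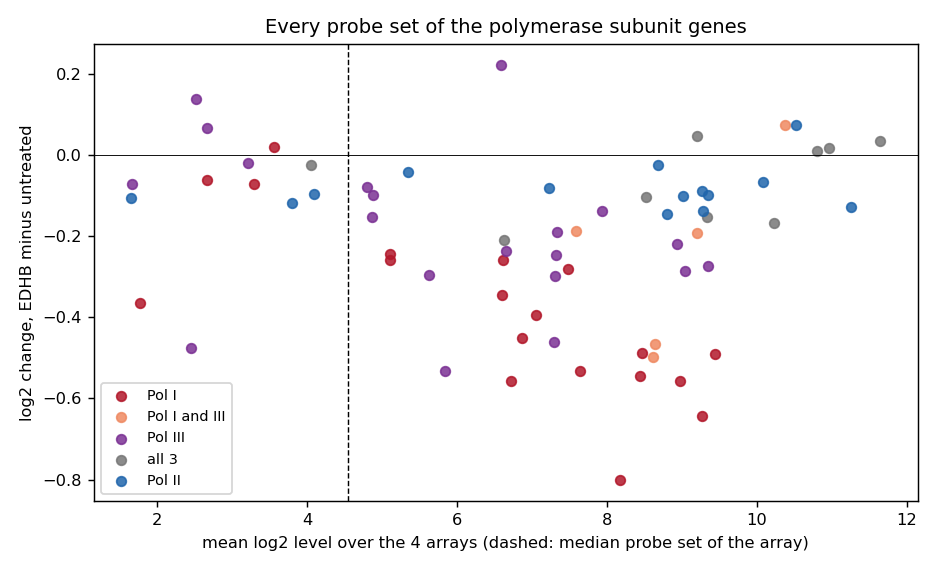
Mean log2 level over the 4 arrays (x axis) and log2 change, EDHB minus untreated (y axis), of all 67 probe sets, coloured by enzyme, with a dashed line at the median probe set (4.54). All Pol I probe sets right of the line lie between -0.80 and -0.25, while those of Pol II lie between -0.14 and 0.07.

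Factors that work with the polymerases were read from lists by role, and none of their genes passed in limma over all genes, by either fit. TBP, with a change of -0.14 and both EDHB arrays below both untreated arrays, stands in the Pol I, Pol II and Pol III lists. It is counted in each. All 9 measured Pol I initiation and termination factors had changes below 0, with a median of -0.20 (-0.07 and -0.22 within replicates 1 and 2), where 9981 of the 19751 genes lay below 0. Both EDHB arrays lay below both untreated arrays in 6 of them, against 22.5% of all genes. TAF1A, a subunit of the promoter selectivity factor of Pol I, had 7.59 and 7.59 on the EDHB arrays, against 7.98 and 8.11 on the untreated arrays, a change of -0.46 (adjusted p = 0.133 in limma, 0.0515 with the trend). RRN3, which bridges Pol I to that factor and is known as a target of growth signalling, had 7.70 and 7.73 on the EDHB arrays, against 7.98 and 8.06 on the untreated arrays, a change of -0.30. In both the groups did not overlap. UBTF, the DNA-binding activator of ribosomal genes, had a change of -0.07.

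Among 18 measured Pol III factors the median was -0.07, with 6 below on both EDHB arrays, 1 above and 11 overlapping (22.5% below and 23.2% above over all genes). SNAPC1, of the complex that activates small nuclear RNA genes for both Pol II and Pol III, had 7.96 and 7.95 on the EDHB arrays, against 8.32 and 8.36 on the untreated arrays, a change of -0.39. GTF3C4, a subunit of the factor that recognises transfer RNA genes, had a change of -0.29. MAF1, the repressor of Pol III, had a change of 0.10 that was -0.0061 within replicate 1 and 0.22 within replicate 2. Of 24 measured general factors of Pol II, 15 were below and 2 above, against the same 22.5% and 23.2%, with a median of -0.10, close to that of the Pol II subunits, and none was lower by 0.25 or more within both replicates. Of 13 measured assembly and import factors, 9 were below and 2 above (median -0.12), again against 22.5% and 23.2%.

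The mitochondrial RNA polymerase POLRMT, a single-subunit enzyme unrelated to the nuclear ones, had 7.33 and 7.25 on the EDHB arrays, against 7.64 and 7.65 on the untreated arrays, a change of -0.35 (adjusted p = 0.152 in limma). The groups did not overlap on that probe set, whereas its 2 dimmer probe sets gave -0.03 and 0.23. All 9 measured genes of mitochondrial transcription had changes below 0, with a median of -0.16, and 8 were below on both EDHB arrays, against 22.5% of all genes. Lower by at least 0.25 within both replicates were 7 of the 29 polymerase members (5 of Pol I, with POLR1C and POLR3G), against 4.20% of all genes. Of the factors above, TAF1A, RRN3, SNAPC1, GTF3C4 and POLRMT met that mark, and 0 polymerase members were higher by as much, against 5.03% of all genes.

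**Figure D5:**
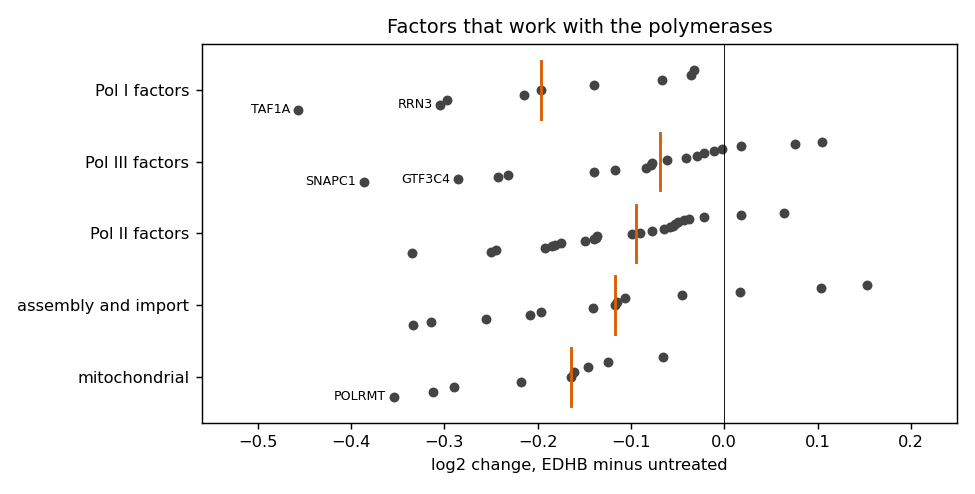
Log2 change, EDHB minus untreated, of each measured factor (points) by role, with the list median (orange bar) and names for genes that differed by at least 0.25 in the same direction within both replicates. All points of the Pol I factors and of mitochondrial transcription lie below 0.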

How the data were processed

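RNA was read on Affymetrix arrays (2 EDHB, 2 untreated). The deposited values are linear intensities of probe sets. The submitters' processing notes name RMA, with no version in the sources used here. That method equalises the distributions of the arrays and so removes any global difference. They were put on the log2 scale, and no pseudocount was added.

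The replicate 2 columns stood in another row order, as if each replicate's pair of arrays had been sorted separately (2-fold higher, 2-fold lower, rest). A forward-backward alignment on the untreated levels alone (Student's t density, scale 0.15, 3 degrees of freedom) restored 54459 of 54613 rows at a posterior of at least 0.95. This layout was inferred and not stated by the authors. Of the 193 values in the sorted 2-fold parts 113 were restored (92 of 148 higher, 21 of 45 lower), so strongly changed genes are under-represented. The log2 changes of the replicates correlated at 0.376 over probe sets. The correlation of the EDHB arrays became 0.997, against 0.418 as deposited. Matching favours small differences between the untreated arrays. On a simulated table of the same 54613 rows it restored 54473, with 0 errors. The simulated noise came from the density that the alignment assumes, so that check does not give the error rate on the real rows. In the real table, 89 of the 92 restored higher values and 18 of the 21 restored lower values had the same sign in replicate 1.

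Gene names came from the platform annotation, checked by gene identifier against RefSeq (41091 with 1 gene, 1801 with several, 11721 with none listed). A gene's value is that of the brightest probe set whose order was restored. limma 3.58.1 in R 4.3.3 (lmFit, eBayes, no covariate) was fitted over 19751 genes, with 2 residual and 2.99 prior degrees of freedom and Benjamini-Hochberg adjustment. On simulated data of the same 19751 genes it recovered 0% of genes changed by 0.5 log2 units and 74% of those changed by 1 (with the intensity trend 18% and 82%), with 8 and 9 wrong calls. SE is limma's moderated one. The number of arrays limits the precision. Python 3.11.15 did the rest. The members and lists were chosen with earlier results of these data known. All members were named, and of the other lists the genes changed by at least 0.25 within both replicates (at most 4 a list, at or above the median probe set), with POLRMT, CRCP and POLR2J2. UBTF, MAF1 and TBP were named after their values were seen, as were NDRG1, VEGFA, KRT14, KRT5, DSP and CDH1.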

Additional observations from a re-analysis of the deposited data

How the results depend on the processing

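The number of genes called over the whole table was 2. It became 375 with the intensity trend, 426 with dim genes left out, 79 with log2(value + 16), 40 with arrays centred on their medians, 38 with the mean of all probe sets of a gene, 7 with cyclic loess, and 0 with a posterior minimum of 0.5 or with the replicate block. It was 0 to 0 without any 1 array. Of the polymerase genes 0 were called, against 4 with the trend, 4 with dim genes left out, 2 with log2(value + 16), 1 with centred arrays and 1 with the mean of all probe sets. The trend fit's 4 members became 5 with centred arrays and 6 with cyclic loess, were 0 with the replicate block and ran from 0 to 0 without any 1 array (these settings were chosen after seeing the data). A group left with 1 array is assumed to vary like the other group. The same-numbered arrays deviated together at a correlation of 0.215, but the labels tie no numbers to shared cultures.

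The Pol I median (-0.52) ran from -0.61 to -0.47 without any 1 array and was -0.28 with shared subunits counted in. The Pol II median (-0.10) ran from -0.12 to -0.027 without 1 array and was -0.042 in the replicate 1 pair alone. The Pol III median (-0.24) ran from -0.28 to -0.19 without 1 array, and was -0.16 with the mean of all probe sets, -0.18 in the replicate 1 pair alone and -0.16 with shared subunits counted in. The median of subunits shared by all 3 polymerases (0.0095) ran from -0.055 to -0.00012 without 1 array, and was -0.087 with the mean of all probe sets and -0.035 in the replicate 1 pair alone. With shared subunits counted in, the Pol I median minus the Pol II median was -0.20 and minus the Pol III median -0.12. By gene, signs turned as follows. The replicate 1 pair alone gave 0.031 for POLR2C, 0.016 for POLR2D and -0.035 for POLR2L. The mean of all probe sets gave -0.10 for POLR1D and -0.087 for POLR2L. Without any 1 array, changes ran from -0.074 to 0.022 for POLR2D, -0.00012 to 0.019 for POLR2H, -0.06 to 0.091 for POLR2K and -0.0015 to 0.072 for POLR2L. The mean of all probe sets includes dim ones by construction; the cause of the other moves was not tested. The 19 members with both EDHB arrays below both untreated arrays ran from 16 to 23 over all settings.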
